A study of Mus musculus with 32 samples.

Results

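Macrophages read nucleotides that leak from stressed or dying cells through purine receptors, and the expression of 10 genes of that system was followed here: the ATP-gated channels P2rx4 and P2rx7, the G protein-coupled nucleotide receptors P2ry2, P2ry6, P2ry13 and P2ry14, the adenosine receptors Adora2a and Adora2b, and the surface enzymes Entpd1 (CD39) and Nt5e (CD73). The members were every probe that carries 1 of these symbols, 14 probes for 10 of the 24082 gene names on the array. The cells were bone marrow-derived macrophages (BMDMs), grown from mouse marrow with M-CSF, from WT C57BL/6 mice and from mice lacking Ifnar1, a chain of the receptor for type I interferons (Ifnar1-/-). The 32 single-colour arrays formed 16 groups of 2, with 8 treatments in each genotype, all collected at 6 h: none, zVAD alone, LPS (100 ng/mL) alone, with zVAD (LPS+zVAD) and with both inhibitors (LPS+zVAD+Nec-1), and IFNβ (1000 U/mL) in the same combinations (IFNβ, IFNβ+zVAD, IFNβ+zVAD+Nec-1). These doses are those of the sample labels, and other descriptions of the study give different ones. LPS is the bacterial ligand of TLR4, zVAD blocks caspases, and LPS or IFNβ with zVAD is a necroptosis stimulation, in which RipK1 drives lytic death unless necrostatin-1 (Nec-1) blocks it. No source used here states whether the paired arrays were separate cultures or animals, so p-values measure only the spread between these samples, which may be technical.

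ATP released from damaged cells opens P2X channels, and P2rx7, which needs high ATP, is best known for driving NLRP3 inflammasome activation and IL-1β release in macrophages. P2Y receptors couple to G proteins: P2ry2 answers ATP and UTP as a find-me signal, P2ry6 answers UDP and promotes phagocytosis, P2ry13 answers ADP, and P2ry14 answers UDP-glucose and related UDP-sugars. CD39 breaks ATP and ADP down to AMP, CD73 turns AMP into adenosine, and adenosine then signals through Adora2a and Adora2b, which raise cAMP and dampen inflammatory output.

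P2ry13 and P2ry14 are neighbours on chromosome 3 and both rose with IFNβ in WT BMDMs, with responses that differed between genotypes, so the 250 bases before a RefSeq start of each are shown (GRCm38.p6), read along the gene's own strand. Capitals mark GAAA or TTTC, the half-site of interferon-response elements.
P2ry13, chr3:59210883-59211132, minus strand: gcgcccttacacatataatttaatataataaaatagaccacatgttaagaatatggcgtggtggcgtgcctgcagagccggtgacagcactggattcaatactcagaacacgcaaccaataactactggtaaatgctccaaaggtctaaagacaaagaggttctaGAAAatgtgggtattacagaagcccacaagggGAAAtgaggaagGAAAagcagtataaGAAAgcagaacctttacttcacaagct
P2ry14, chr3:59153493-59153742, minus strand, the furthest upstream of its 4 listed starts: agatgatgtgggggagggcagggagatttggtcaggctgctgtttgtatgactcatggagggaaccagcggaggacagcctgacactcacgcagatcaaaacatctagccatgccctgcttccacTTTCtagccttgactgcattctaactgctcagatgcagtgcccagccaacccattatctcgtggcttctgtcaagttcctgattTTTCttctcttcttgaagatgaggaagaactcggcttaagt
The P2ry13 stretch holds 4 half-sites and the P2ry14 stretch 2, where the median over 32851 such stretches is 2 and 86.4% hold at least 1. A pair of half-sites at the spacing of an interferon-stimulated response element, GAAANNGAAA on either strand, lies in 3.44% of all 32851 windows of 300 bases around a start. The STAT element TTCNNNGAA lies in 8.3%. Neither motif occurs in any window of the 8 members for which RefSeq windows were given.

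P2rx7 was read by 3 probes that behaved unequally, and the first 30 of each probe's 60 bases are shown to tell them apart, with positions on mm9, chromosome 5, plus strand.
P2rx7 5′-most probe, 123105174 to 123105233: ggtcaaaaagctccccaatccatgcaacaa
P2rx7 junction-spanning probe, whose 60 bases span 123120528 to 123123413: tttcggcactggaggaaaatttgacatcat
P2rx7 3′-most probe, 123134194 to 123134253, the brightest and the one used: ttcacttctctctttaaagggaaccatctt
The brightest probe was also used for P2rx4 (5:123178983-123179042, plus strand) and Adora2b (11:62079834-62079893, plus strand), each of which has a second probe. The remaining members have 1 probe each on mm9: P2ry2 at 7:108145553-108145612 and P2ry6 at 7:108086149-108086208 (both minus), P2ry13 at 3:59012054-59012113 and P2ry14 at 3:58918548-58918607 (both minus), Adora2a at 10:74797461-74797520, Entpd1 at 19:40816008-40816067 and Nt5e at 9:88266616-88266675 (all plus).

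Levels are log2 of the scanner's background-subtracted intensity after quantile normalization, so a difference of 1 is a doubling, and levels of different probes cannot be ranked against each other. A difference was called at a limma adjusted p under 0.05 over 16033 genes. Of the members, 8 were well above background on all 32 arrays, P2ry13 on 31, and Nt5e on 5, which left Nt5e out of the tests. The array labelled Ifnar1-/- LPS+zVAD+Nec-1 replicate 2 stood apart: it correlated at 0.947 with its partner and at 0.993 with the mean of the Ifnar1-/- IFNβ+zVAD+Nec-1 arrays, while other pairs ranged from 0.973 to 0.991. Each of the 4 slides held 1 genotype and 1 replicate number, so genotype and slide cannot be told apart within a treatment. Of the 3 Ifnar1 probes, 2 were lower on all 16 Ifnar1-/- arrays than on any WT array, and for the third, the brightest, the genotypes overlapped. The 9 macrophage markers found by name, Csf1r and Cd68 among them, were above background on all arrays, with a summed log2 level of 19.6 to 20.1. Neutrophil markers (7 of 8 above background throughout) summed to 13.5 to 15.6 on WT and 15.7 to 16.8 on Ifnar1-/- arrays, and stromal markers (4 of 7, with Pdgfra above background on none) to 8.87 to 11.1 and 11.0 to 13.1. Over all arrays dendritic cell markers (2 of 6 above background throughout) summed to 15.2 to 16.4. The sums were 11.9 to 13.5 for T and NK cell markers (2 of 6) and 11.9 to 13.7 for endothelial markers (2 of 4). B cell markers (1 of 4) gave 7.31 to 8.74, and mast cell and basophil markers (1 of 4) 8.32 to 9.61. The part of these cell types in the genotype differences below was not tested, and in such bulk samples fewer cells of a type and less RNA per cell cannot be told apart.

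**Figure D1:**
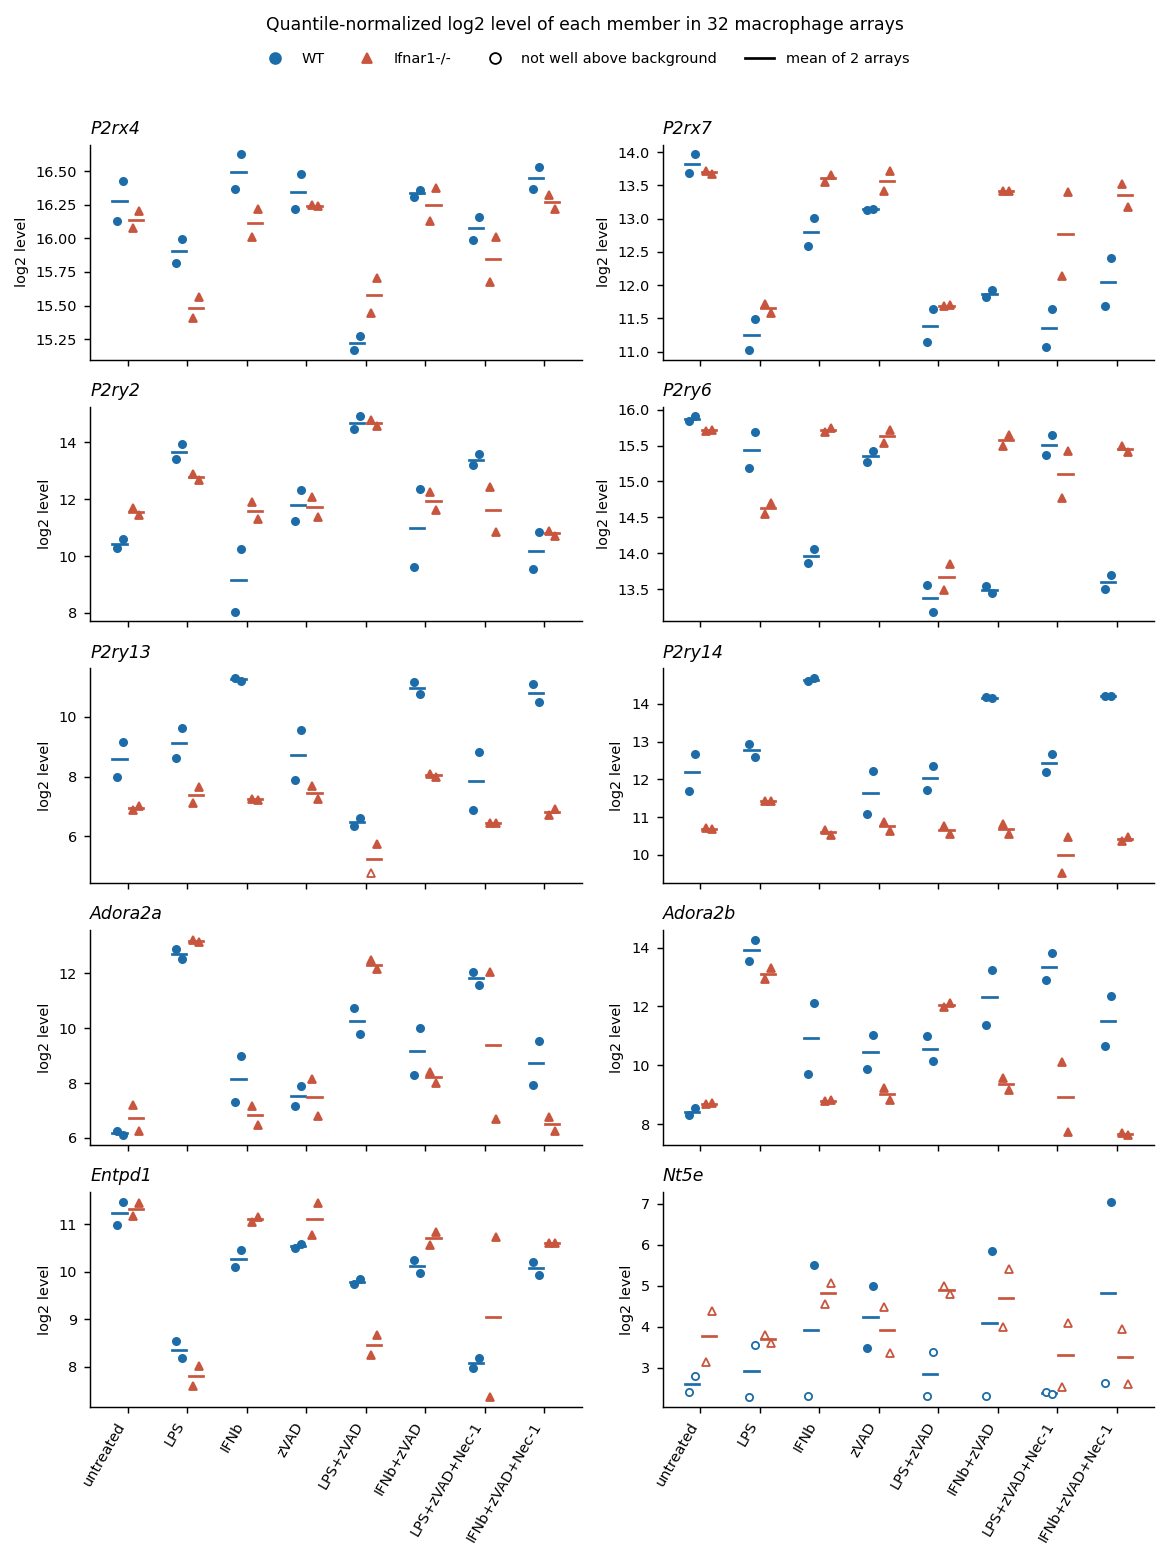
Log2 level (quantile-normalized) of the 10 members on every array, by treatment. Circles are WT, triangles Ifnar1-/-, open symbols are not well above background, and the bar is the mean of 2 arrays. Adora2a and Adora2b sit highest with LPS, while the WT IFNβ groups of P2ry13 and P2ry14 stand above and those of P2ry6 below the Ifnar1-/- IFNβ groups.

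LPS raised both adenosine receptors by a wide margin and lowered P2rx7 and Entpd1, in WT and in Ifnar1-/- BMDMs. In WT cells 5 of the 9 tested members were called, 3 higher and 2 lower, where 41.2% of all genes tested were called. Ifnar1-/- cells had 6 called, 2 higher and 4 lower, where 24.8% of all genes were called. The median log2 difference of the 9 members was 0.55 in WT and 0.42 in Ifnar1-/- cells, against -0.08 and -0.06 over all genes.

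Adora2a, the high-affinity adenosine receptor, read 6.24 and 6.10 in untreated WT cells and 12.90 and 12.52 with LPS. Without the receptor it read 7.19 and 6.24 untreated and 13.22 and 13.14 with LPS. The groups lay far apart in both genotypes. The log2 difference was 6.54 ± 1.08 (SE, n = 2 per group) in WT, 93.1-fold (limma adjusted p = 9.3e-05), and 6.47 in Ifnar1-/- cells, 88.5-fold (limma adjusted p = 0.00034). Adora2b, the low-affinity adenosine receptor, went from 8.31 and 8.53 to 13.56 and 14.26 in WT and from 8.69 and 8.70 to 12.94 and 13.30 in Ifnar1-/- cells. Again no untreated array came near an LPS array. This was 44.8-fold in WT (log2 5.49 ± 0.77, limma adjusted p = 2e-05) and 21.5-fold in Ifnar1-/- cells (limma adjusted p = 0.00046), and its second probe rose by 4.66 ± 0.55 and 3.82 on the log2 scale.

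Entpd1, the CD39 enzyme that removes ATP, moved the other way. It read 10.98 and 11.47 in untreated and 8.54 and 8.18 in LPS-treated WT cells, and 11.17 and 11.45 against 7.59 and 8.01 in Ifnar1-/- cells, with no overlap. It was 7.3-fold lower in WT (limma adjusted p = 0.00081) and 11.4-fold lower in Ifnar1-/- cells (limma adjusted p = 0.0004). P2rx7, the high-threshold ATP channel, fell from 13.69 and 13.97 to 11.03 and 11.49 in WT and from 13.72 and 13.68 to 11.72 and 11.59 in Ifnar1-/- cells. All 4 LPS arrays lay below all untreated arrays, at 5.95-fold (limma adjusted p = 5.4e-06) and 4.12-fold (limma adjusted p = 0.0002) lower.

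P2ry2, the ATP and UTP receptor, rose in WT cells from 10.28 and 10.59 to 13.41 and 13.93, 9.4-fold (limma adjusted p = 0.0017). Ifnar1-/- cells gave 11.69 and 11.43 untreated and 12.88 and 12.67 with LPS for P2ry2, a log2 difference of 1.22 that was not called (limma adjusted p = 0.27). The genotypes' P2ry2 responses differed by -2.01 ± 1.05, which did not pass the test (limma adjusted p = 0.31). P2ry6, the UDP receptor, fell 2.12-fold in Ifnar1-/- cells (limma adjusted p = 0.00097) and differed by -0.44 in WT cells (limma adjusted p = 0.10, and 0.047 with the slide as a replicate block). Without WT LPS replicate 2 the WT value was -0.69 (limma adjusted p = 0.032). P2rx4, the most ATP-sensitive P2X channel of the pair, differed by -0.37 in WT (limma adjusted p = 0.085, and 0.0088 with the block) and fell 1.57-fold in Ifnar1-/- cells (limma adjusted p = 0.0076). The latter call was lost without Ifnar1-/- LPS replicate 1 (-0.58, limma adjusted p = 0.075) or untreated replicate 2 (-0.59, limma adjusted p = 0.068).

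P2ry13 and P2ry14 showed LPS differences of 0.55 and 0.58 in WT and 0.42 and 0.75 in Ifnar1-/- cells, none called, though P2ry14 reached 1.07 in WT without untreated replicate 2 (limma adjusted p = 0.048). Scaling by each array's 75th percentile in place of quantile normalization left the WT split at 3 higher and 2 lower but made the Ifnar1-/- split 2 higher and 2 lower, losing P2rx4 and P2ry6. No member's LPS response differed between genotypes, where 6.64% of all genes did. In limma 1 member, P2ry6, had an unadjusted p under 0.05, as did 3118 of all 16033 genes. The 95% interval of that difference, Ifnar1-/- minus WT on the log2 scale, ran from -3.27 to 3.13 for Adora2a and from -3.35 to 1.23 for Adora2b, so these arrays could not resolve differences within those widths.

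The fall of P2rx7 differed between its 3 probes, which differ in position and in brightness. Their median levels were 12.80 (3′-most), 7.59 (junction-spanning) and 8.78 (5′-most). With LPS in WT cells the 3′-most probe changed by -2.57 ± 0.32, the junction-spanning probe by -1.79 ± 0.41 and the 5′-most probe by -0.44 ± 0.19 on the log2 scale. Within arrays, the level of the 3′-most probe relative to the 5′-most one changed by -2.13 ± 0.27 in WT (95% interval -2.71 to -1.56, limma adjusted p = 8.1e-06) and by -1.66 in Ifnar1-/- cells (limma adjusted p = 0.00034). Against the junction-spanning probe the gap was -0.78 ± 0.25 in WT (limma adjusted p = 0.019) and -0.82 in Ifnar1-/- cells (limma adjusted p = 0.024). With IFNβ in WT cells the 3′-most and junction-spanning probes differed by -0.05 (95% interval -0.59 to 0.48, limma adjusted p = 0.90), while the gap to the 5′-most probe was -0.90 (limma adjusted p = 0.016). With LPS+zVAD the gap of the 3′-most to the 5′-most probe was -1.81 in WT (limma adjusted p = 2.1e-05) and -1.60 in Ifnar1-/- cells (limma adjusted p = 0.00036). Which transcripts each probe reads, and whether position or brightness goes with the unequal fall, was not tested.

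**Figure D2:**
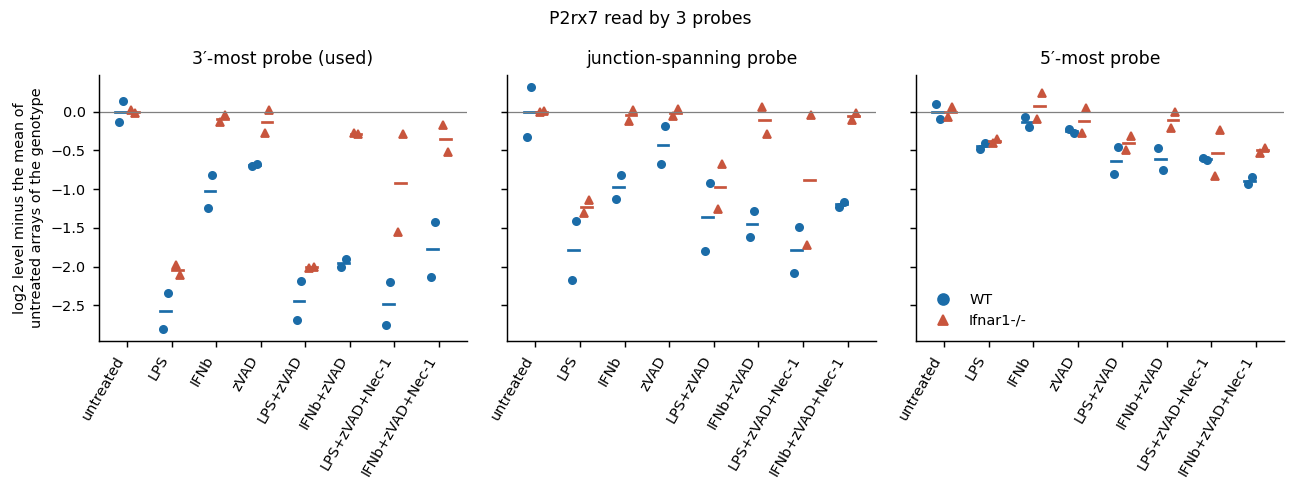
Log2 level of the 3 P2rx7 probes on each array, minus that probe's untreated mean in the same genotype, by treatment. With LPS in WT cells the 3′-most probe lies at about -2.57, the junction-spanning probe at -1.79 and the 5′-most probe at -0.44.

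IFNβ raised P2ry13, P2ry14 and Adora2b and lowered P2ry6 and P2rx7 in WT BMDMs. These were 5 of 9 tested members, where 35.3% of all genes were called. Limma called 0 members in Ifnar1-/- cells, and 0 had an unadjusted p under 0.05, where 0% of all genes were called and 253 had such a p-value. The genotype difference itself was called for 3 members, 1 higher and 2 lower in Ifnar1-/- minus WT, where 18.8% of all genes were called. The median log2 difference of the members was 0.22 in WT, against -0.17 over all genes.

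P2ry14, the UDP-glucose receptor, read 11.70 and 12.68 in untreated and 14.60 and 14.68 in IFNβ-treated WT cells, and 10.70 and 10.68 against 10.67 and 10.53 in Ifnar1-/- cells. The WT groups lay apart and the Ifnar1-/- arrays stayed together. The WT rise was 5.47-fold (log2 2.45 ± 0.35, limma adjusted p = 2.8e-05), the 95% interval in Ifnar1-/- cells was -0.83 to 0.65, and the responses differed by -2.54 ± 0.50 (limma adjusted p = 0.0014). P2ry13, the ADP receptor, read 7.98 and 9.17 untreated and 11.29 and 11.21 with IFNβ in WT, and 6.89 and 7.02 against 7.25 and 7.23 in Ifnar1-/- cells. The untreated WT arrays were spread by over 1 unit but both lay well under the IFNβ arrays. The WT rise was 6.39-fold (log2 2.68 ± 0.55, limma adjusted p = 0.00093). The responses differed by -2.39 ± 0.78 (limma adjusted p = 0.039), a call lost without any 1 of 7 of the 8 arrays (-1.80 to -2.46, limma adjusted p from 0.076 to 0.18) and kept without WT untreated replicate 2.

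P2ry6, the UDP receptor of phagocytosis, fell from 15.84 and 15.91 to 13.87 and 14.06 in WT and read 15.70 and 15.72 against 15.69 and 15.74 in Ifnar1-/- cells. Its replicate arrays lay close together, and only the WT groups parted. The WT fall was 3.74-fold (log2 -1.90 ± 0.21, limma adjusted p = 1.2e-06), the 95% interval in Ifnar1-/- cells was -0.43 to 0.44, and the responses differed by 1.91 ± 0.30 (limma adjusted p = 0.00017). Scaling to the 75th percentile kept these directions.

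Adora2b rose with IFNβ in WT cells from 8.31 and 8.53 to 9.71 and 12.13, with the IFNβ arrays far from each other. The difference of 5.63-fold (limma adjusted p = 0.017) fell to a log2 value of 1.28 without IFNβ replicate 2 (limma adjusted p = 0.28), and the call was also lost without untreated replicate 1 (2.38, limma adjusted p = 0.081) or replicate 2 (2.61, limma adjusted p = 0.06). The genotypes' responses differed by -2.39 ± 1.09 (limma adjusted p = 0.14, and 0.046 with the block). Without WT IFNβ replicate 1 the difference was -3.60 (limma adjusted p = 0.034). P2rx7 went from 13.69 and 13.97 to 12.59 and 13.01 in WT, 2.04-fold lower (limma adjusted p = 0.017), a call lost without IFNβ replicate 1 (-0.82, limma adjusted p = 0.14) or untreated replicate 2 (-0.89, limma adjusted p = 0.12). Its response difference of 0.94 was not called (limma adjusted p = 0.16).

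The other members were not called with IFNβ in WT cells. Adora2a differed by 1.98 (limma adjusted p = 0.17) and Entpd1 by -0.95 (limma adjusted p = 0.25), and both were called once both arrays of Ifnar1-/- LPS+zVAD+Nec-1 were left out of the fit (limma adjusted p = 0.020 and 0.0040). P2ry2 read 8.04 and 10.24 with IFNβ against 10.28 and 10.59 untreated, a difference of -1.29 (limma adjusted p = 0.19, and 0.033 with the block). Without WT IFNβ replicate 2 it was -2.39 (limma adjusted p = 0.035). P2rx4 differed by 0.22 (limma adjusted p = 0.35). Under the 75th-percentile scaling the WT split was 4 higher and 1 lower, since P2rx7 (-0.71, limma adjusted p = 0.21) was lost and P2rx4 (0.74, limma adjusted p = 0.043) gained.

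In untreated cells P2ry14 was 2.83-fold lower in Ifnar1-/- than in WT BMDMs (log2 -1.50 ± 0.35, limma adjusted p = 0.011), 1 of 9 members, where 8.73% of all genes were called. The call was lost without WT replicate 2 (-1.01, limma adjusted p = 0.22), Ifnar1-/- replicate 1 (-1.51, limma adjusted p = 0.069) or replicate 2 (-1.49, limma adjusted p = 0.078). P2ry13 differed by -1.62 (limma adjusted p = 0.08, and 0.027 with the block). Slide and genotype cannot be told apart in these values.

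**Figure D3:**
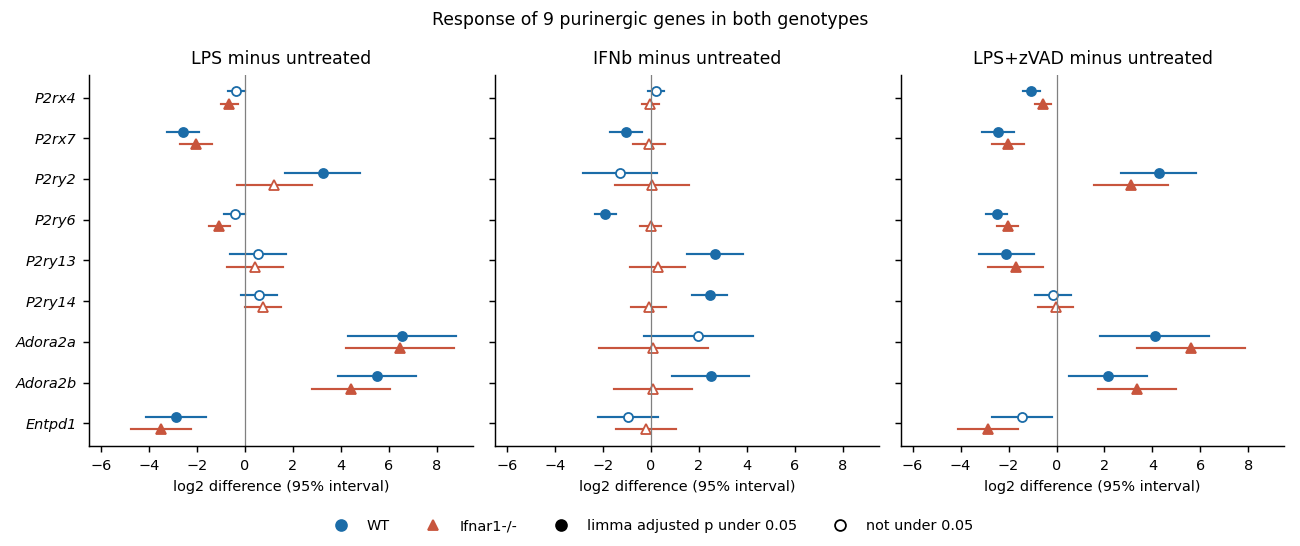
Log2 difference from untreated cells of the 9 tested members for LPS, IFNβ and LPS+zVAD in WT and Ifnar1-/- BMDMs, with 95% intervals. Filled points have a limma adjusted p under 0.05. For IFNβ 5 WT points are filled and 0 Ifnar1-/- points.

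Caspase inhibition alone left every member uncalled. With zVAD in WT cells limma called 0 members, where 0.00624% of all genes were called. It gave 3 members an unadjusted p under 0.05, Adora2b (log2 difference 2.02), P2ry6 (-0.52) and P2rx7 (-0.69). Of all 16033 genes, 901 had such a p-value. In Ifnar1-/- cells 0 were called and 0 had an unadjusted p under 0.05, with 0% of all genes called and 61 genes at such a p-value. The zVAD responses of the genotypes differed for 0 members at either limit, again with 0% of all genes called and 163 genes at an unadjusted p under 0.05.

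LPS+zVAD, the necroptosis stimulation through TLR4, took P2ry6, P2ry13, P2rx4 and P2rx7 below and Adora2a, Adora2b and P2ry2 above their untreated level in both genotypes. Against untreated WT cells 7 of 9 members were called, 3 higher and 4 lower, where 51.0% of all genes were called, and in Ifnar1-/- cells 8, 3 higher and 5 lower, where 28.2% of all genes were called. Adding zVAD to LPS in WT cells lowered P2ry6, P2ry13, Adora2b and P2rx4, 4 of 9 members, where 34.6% of all genes were called, and raised none. The same step in Ifnar1-/- cells lowered P2ry6 and P2ry13, 2 of 9, where 8.25% of all genes were called.

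P2ry6 read 15.18 and 15.68 with LPS and 13.56 and 13.19 with LPS+zVAD in WT, and 14.54 and 14.71 against 13.49 and 13.85 in Ifnar1-/- cells. The groups were apart in both genotypes. Relative to LPS it was 4.16-fold lower in WT (limma adjusted p = 8.7e-07) and 1.94-fold lower in Ifnar1-/- cells (limma adjusted p = 0.0072). The Ifnar1-/- call was lost without LPS replicate 2 (-0.87, limma adjusted p = 0.08) or LPS+zVAD replicate 1 (-0.77, limma adjusted p = 0.14). P2ry13 read 8.62 and 9.62 with LPS and 6.36 and 6.61 with LPS+zVAD in WT, and 7.11 and 7.64 against 4.76 and 5.74 in Ifnar1-/- cells, where the 4.76 was not well above background. The LPS+zVAD arrays were the lower in each genotype, by 6.22-fold in WT (limma adjusted p = 0.001) and 4.36-fold in Ifnar1-/- cells (limma adjusted p = 0.022), the latter a value measured above background on 1 of the 2 LPS+zVAD arrays. The latter call was lost without LPS replicate 1 (-2.39, limma adjusted p = 0.075), LPS replicate 2 (-1.86, limma adjusted p = 0.17) or LPS+zVAD replicate 1 (-1.64, limma adjusted p = 0.28).

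Adora2b with LPS+zVAD read 11.00 and 10.13 in WT, under its LPS level of 13.56 and 14.26 and over its untreated level of 8.31 and 8.53. It was 10.2-fold lower than with LPS (limma adjusted p = 0.0022) and 4.41-fold higher than untreated (limma adjusted p = 0.027). The latter call was lost without LPS+zVAD replicate 1 (1.71, limma adjusted p = 0.16) or untreated replicate 1 (2.03, limma adjusted p = 0.1) or 2 (2.25, limma adjusted p = 0.074). P2rx4 read 15.17 and 15.27 against 15.82 and 15.99 with LPS in WT, 1.61-fold lower (limma adjusted p = 0.0036) and 2.08-fold lower than untreated (limma adjusted p = 3.4e-05). P2rx4 in Ifnar1-/- cells was 1.48-fold lower than untreated (limma adjusted p = 0.017), lost without LPS+zVAD replicate 1 (-0.43, limma adjusted p = 0.18) or untreated replicate 2 (-0.50, limma adjusted p = 0.12). Its second probe differed from untreated by -1.47 ± 0.57 (SE) in WT cells. All 5 calls of P2rx4 were lost under the 75th-percentile scaling, which moved the median of all genes by 0.28 in LPS+zVAD against untreated WT cells and left P2rx4 there at -0.23 (limma adjusted p = 0.51).

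P2ry2 reached its highest levels with LPS+zVAD, 14.46 and 14.92 in WT and 14.79 and 14.56 in Ifnar1-/- cells, 19.1-fold (limma adjusted p = 8.6e-05) and 8.67-fold (limma adjusted p = 0.004) above untreated. The step over LPS was 1.02 in WT (limma adjusted p = 0.33) and 1.90 in Ifnar1-/- cells (limma adjusted p = 0.13, and 0.011 with the block). Adora2a read 10.74 and 9.78 in WT and 12.48 and 12.18 in Ifnar1-/- cells, still 17.0-fold (limma adjusted p = 0.0037) and 49.0-fold (limma adjusted p = 0.00088) above untreated, and its WT difference from LPS of -2.45 was not called (limma adjusted p = 0.089). With the block that limma adjusted p was 0.042, and without both arrays of Ifnar1-/- LPS+zVAD+Nec-1 0.0053.

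Entpd1 read 9.74 and 9.84 with LPS+zVAD in WT, between its LPS and untreated levels. Its difference from untreated was -1.43 (limma adjusted p = 0.054), called with the block (limma adjusted p = 0.027) and without both arrays of Ifnar1-/- LPS+zVAD+Nec-1 (limma adjusted p = 5.6e-05). Its step of 1.43 over LPS (limma adjusted p = 0.073) was likewise called with the block (limma adjusted p = 0.035) and without those arrays (limma adjusted p = 0.00012). Entpd1 in Ifnar1-/- cells was 7.23-fold lower than untreated (limma adjusted p = 0.0017). P2rx7 stayed near its LPS level, at 11.14 and 11.64 in WT and 11.69 and 11.70 in Ifnar1-/- cells, 5.42-fold (limma adjusted p = 3.9e-06) and 4.02-fold (limma adjusted p = 0.00019) under untreated.

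Against untreated cells, P2ry6 with LPS+zVAD was 5.64-fold lower in WT (limma adjusted p = 2.5e-08) and 4.11-fold lower in Ifnar1-/- cells (limma adjusted p = 4e-06). P2ry13 was 4.26-fold (limma adjusted p = 0.0037) and, with 1 of 2 arrays above background, 3.26-fold (limma adjusted p = 0.027) lower. Its WT call was lost without untreated replicate 2 (-1.50, limma adjusted p = 0.076), and its Ifnar1-/- call without LPS+zVAD replicate 1 (-1.22, limma adjusted p = 0.25) or untreated replicate 1 (-1.77, limma adjusted p = 0.086) or 2 (-1.64, limma adjusted p = 0.12). Adora2b in Ifnar1-/- cells was 10.2-fold higher (limma adjusted p = 0.0032), and P2ry14 differed by -0.15 in WT and -0.04 in Ifnar1-/- cells. The LPS+zVAD responses differed between genotypes for 0 members, where 16.1% of all genes were called. In limma 0 members had an unadjusted p under 0.05, where 4591 of all 16033 genes did. With the block P2rx4 was called (0.49, limma adjusted p = 0.024), and without both arrays of Ifnar1-/- LPS+zVAD+Nec-1 Entpd1 (-1.42, limma adjusted p = 0.0065).

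Nec-1, which inhibits RipK1, returned P2ry6 toward its LPS level in both genotypes. In WT cells 4 of 9 members differed between LPS+zVAD+Nec-1 and LPS+zVAD, 3 higher and 1 lower, where 28.5% of all genes were called (2 higher and 0 lower under the 75th-percentile scaling). Ifnar1-/- cells also had 4 such members, 2 higher and 2 lower, where 18.8% of all genes were called, but that group holds the array that stood apart.

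P2ry6 with Nec-1 read 15.37 and 15.65 in WT, 4.39-fold over LPS+zVAD (limma adjusted p = 1.4e-06), and no array of the groups overlapped. With Ifnar1 absent it read 14.77 and 15.43, 2.69-fold over LPS+zVAD (limma adjusted p = 0.00021), and without the array labelled replicate 2 it was still 2.14-fold higher (limma adjusted p = 0.0043). P2rx4 read 15.99 and 16.16 in WT, 1.80-fold higher (limma adjusted p = 0.00081). Adora2b read 12.91 and 13.80 in WT, 6.93-fold higher (limma adjusted p = 0.01). That call was lost without LPS+zVAD replicate 2 (2.36, limma adjusted p = 0.11) or LPS+zVAD+Nec-1 replicate 2 (2.34, limma adjusted p = 0.099).

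Entpd1 fell with Nec-1 in WT cells to 7.98 and 8.18, 3.28-fold under LPS+zVAD (limma adjusted p = 0.039), a call lost without any 1 of the 4 arrays (-1.61 to -1.81, limma adjusted p from 0.097 to 0.16). P2ry13 read 6.88 and 8.82 in WT, a difference of 1.37 (limma adjusted p = 0.073) that was called with the block (limma adjusted p = 0.033) and without LPS+zVAD+Nec-1 replicate 1 (2.34, limma adjusted p = 0.0067). P2ry2 differed by -1.30 (limma adjusted p = 0.22, and 0.037 with the block), Adora2a by 1.57 (limma adjusted p = 0.32) and P2rx7 by -0.04.

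The Nec-1 values of Adora2b, P2ry2, P2rx7, Adora2a and Entpd1 in Ifnar1-/- cells moved with the array labelled replicate 2, while P2ry13 differed by 1.21 with it (limma adjusted p = 0.14) and without it (limma adjusted p = 0.33). Adora2b read 10.10 and 7.73, 8.77-fold under LPS+zVAD (limma adjusted p = 0.0091), but -1.95 without that array (limma adjusted p = 0.17). P2ry2 read 12.42 and 10.86, 8.21-fold lower (limma adjusted p = 0.0085), but -2.26 without it (limma adjusted p = 0.12). P2rx7 read 12.14 and 13.41, 2.12-fold higher (limma adjusted p = 0.024), but 0.45 without it (limma adjusted p = 0.42). These calls were also lost without LPS+zVAD replicate 1 (-3.20, -2.92 and 1.08 for Adora2b, P2ry2 and P2rx7, limma adjusted p = 0.06, 0.071 and 0.12), and those of Adora2b and P2rx7 without its replicate 2 (-3.07 and 1.09, limma adjusted p = 0.053 and 0.092). Adora2a read 12.07 and 6.70 and Entpd1 7.36 and 10.73, the widest splits of any pair for these genes. The Adora2a difference was -2.94 (limma adjusted p = 0.064, and 0.024 with the block) and -0.26 without the array (limma adjusted p = 0.90). Without replicate 1 instead, Adora2a differed by -5.63 (limma adjusted p = 5.1e-05) and Entpd1 by 2.27 (limma adjusted p = 2.2e-05). Entpd1 differed by 0.59 with both arrays (limma adjusted p = 0.56) and by -1.09 without the array labelled replicate 2 (limma adjusted p = 0.025).

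**Figure D4:**
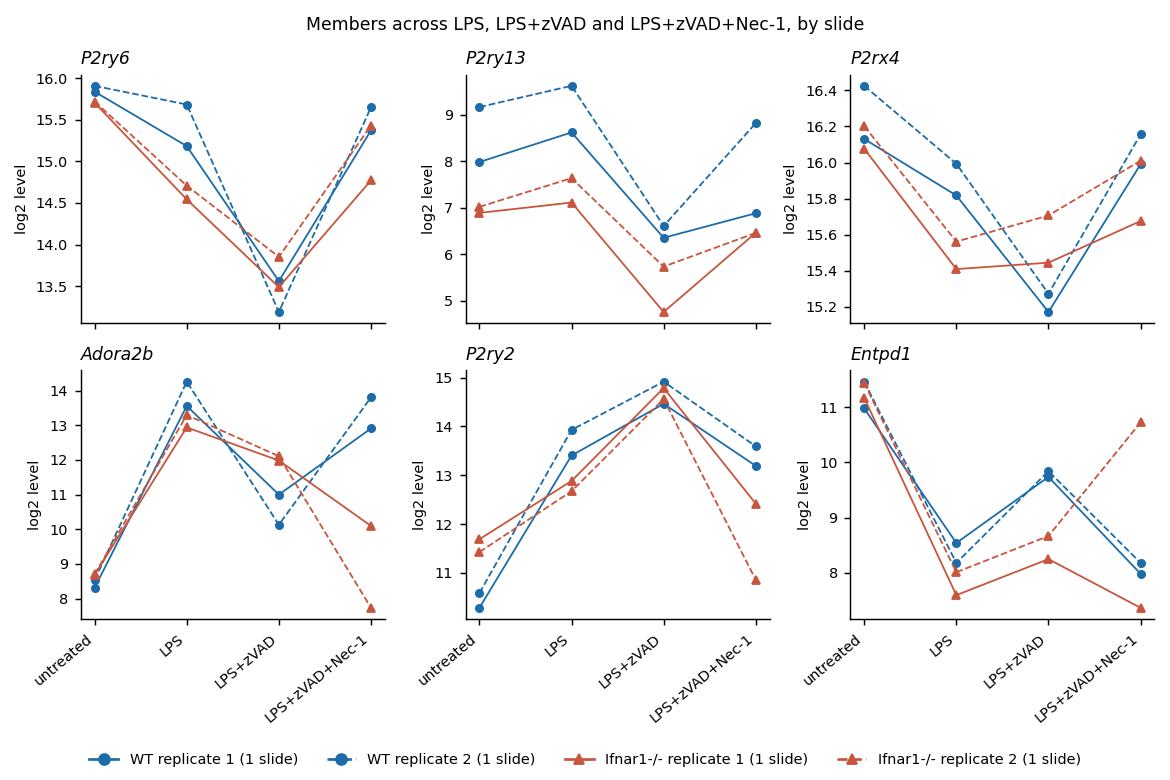
Log2 level of P2ry6, P2ry13, P2rx4, Adora2b, P2ry2 and Entpd1 in untreated, LPS, LPS+zVAD and LPS+zVAD+Nec-1 BMDMs, with 1 line per slide (circles WT, triangles Ifnar1-/-). P2ry6 dips to 13.19 to 13.85 with LPS+zVAD on all 4 slides and returns to 14.77 to 15.65 with Nec-1.

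IFNβ+zVAD, the necroptosis stimulation through the interferon receptor, again raised P2ry13, P2ry14 and Adora2b and lowered P2ry6 and P2rx7 in WT cells, against the same untreated arrays, and Adora2a was called as well. In all 6 of 9 members were called, 4 higher and 2 lower, where 37.6% of all genes were called. In Ifnar1-/- cells 0 were called by limma and 0 had an unadjusted p under 0.05, where 0.00624% of all genes were called and 585 had such a p-value. The responses differed between genotypes for 4 members, 2 higher and 2 lower in Ifnar1-/- minus WT, where 19.3% of all genes were called.

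P2ry6 read 13.54 and 13.45 in WT and 15.50 and 15.65 in Ifnar1-/- cells, 5.20-fold under untreated in WT (limma adjusted p = 8.8e-08), and the responses differed by 2.24 ± 0.30 (limma adjusted p = 3.9e-05). P2rx7 read 11.82 and 11.92 in WT and 13.42 and 13.41 in Ifnar1-/- cells, 3.88-fold lower in WT (limma adjusted p = 9.6e-05). Its responses differed by 1.67 ± 0.45 (limma adjusted p = 0.014), or 1.53 without WT untreated replicate 2 (limma adjusted p = 0.058). For both genes the WT arrays lay below every Ifnar1-/- array of that treatment.

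P2ry14 read 14.18 and 14.16 in WT and 10.81 and 10.54 in Ifnar1-/- cells, a WT rise of 3.95-fold (limma adjusted p = 0.00023) and a response difference of -1.99 ± 0.50 (limma adjusted p = 0.0087), or -1.50 without WT untreated replicate 1 (limma adjusted p = 0.059). P2ry13 read 11.15 and 10.77 in WT, a rise of 5.24-fold (limma adjusted p = 0.0022). Adora2b read 11.37 and 13.25 in WT and 9.55 and 9.17 in Ifnar1-/- cells, a WT rise of 14.8-fold (limma adjusted p = 0.00061). Its response difference of -3.22 ± 1.09 (limma adjusted p = 0.046) was lost without any 1 of 7 of the 8 arrays (-2.28 to -3.41, limma adjusted p from 0.074 to 0.2). Adora2a read 8.30 and 10.01 in WT, 7.92-fold over untreated (limma adjusted p = 0.036), a call lost without IFNβ+zVAD replicate 2 (2.13, limma adjusted p = 0.25) or untreated replicate 1 (3.06, limma adjusted p = 0.1) or 2 (2.91, limma adjusted p = 0.13). Entpd1 differed by -1.11, called without both arrays of Ifnar1-/- LPS+zVAD+Nec-1 (limma adjusted p = 0.0011).

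Neither zVAD on top of IFNβ nor Nec-1 on top of IFNβ+zVAD moved a member past the test. For IFNβ+zVAD against IFNβ in WT cells limma called 0 members, where 0% of all genes were called. It gave 3 members an unadjusted p under 0.05, P2rx7 (log2 difference -0.93), P2ry2 (1.84) and P2ry6 (-0.48), and 637 of all 16033 genes had such a p-value. In Ifnar1-/- cells 0 were called and 0 had an unadjusted p under 0.05, where 0.00624% of all genes were called and 370 had such a p-value. With Nec-1 in WT cells both counts were 0, where 0% of all genes were called and 613 had an unadjusted p under 0.05. In Ifnar1-/- cells 0 were called, where 1.58% of all genes were. P2ry13 and Adora2b had an unadjusted p under 0.05 there, as did 1593 of all 16033 genes.

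Nt5e, the CD73 enzyme that makes adenosine, was at or near background. It was well above background on 5 of 32 arrays, all WT: 3.47 and 4.99 with zVAD, and replicate 2 of IFNβ (5.50), IFNβ+zVAD (5.84) and IFNβ+zVAD+Nec-1 (7.04). The zVAD group was the 1 group with both arrays above background, but its level was not the highest. Measured means were 4.89 in Ifnar1-/- LPS+zVAD (0 arrays above background) and 4.83 in WT IFNβ+zVAD+Nec-1 (1 array). The zVAD mean of 4.23 lay at least 2.03-fold over untreated WT cells, whose measured mean was 2.60. Their bound, from the lowest signal well above background on each array, was 3.21. Without zVAD replicate 2 the zVAD level was at least 1.197-fold over untreated. Of the other groups, the zVAD mean exceeded the bound only for WT LPS (1.40-fold) and WT LPS+zVAD (1.25-fold). A fit that kept dim probes gave a difference of 1.63, which was not called (limma adjusted p = 1).

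Ordered over the 16 groups, P2ry14 and P2ry13 had the 3 WT IFNβ groups at the top, 1.40 and 1.68 above the next group, WT LPS. These steps exceeded 0.74 and 1.16, the 95% limits of a single pairwise difference in the fit. Such limits are not adjusted for the number of steps or for ordering the groups first. Steps between genotypes are also steps between slides. P2ry13 was lowest in Ifnar1-/- LPS+zVAD, 1.21 under Ifnar1-/- LPS+zVAD+Nec-1, with 1 of 2 arrays above background. This step is the Nec-1 difference given above, which was not called (limma adjusted p = 0.14). For P2ry6 the steps beyond the limit of 0.44 lay between Ifnar1-/- LPS+zVAD+Nec-1 and Ifnar1-/- LPS (0.47) and between the latter and WT IFNβ (0.66). P2rx7 had 1 such step (0.73), between Ifnar1-/- LPS+zVAD+Nec-1 and WT IFNβ+zVAD+Nec-1. Without the array that stood apart, this step was 0.09 and the P2ry6 step of 0.47 was 0.15, both within the limit. Ifnar1-/- LPS+zVAD+Nec-1, read from its replicate 1 alone, then lay beyond the limit under its upper neighbour for P2ry6 and P2ry14. The P2ry6 step was 0.58 under WT zVAD, and the P2ry14 step 0.92 under Ifnar1-/- IFNβ+zVAD+Nec-1. All limits here are those of the fit to all arrays with 2 arrays per group. A lone array has a wider limit, which was not computed. For P2rx4, P2ry2, Adora2a, Adora2b and Entpd1 no group differed from its neighbour beyond that limit over all arrays. Without that array Entpd1 had a step of 1.34 between WT and Ifnar1-/- LPS+zVAD (limit of the fit to all arrays 1.26).

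Over the 16 group means, which share slides and include the array that stood apart, the gene most like Adora2a was Saa1 (Pearson r = 0.970), an acute-phase protein, followed by Mmp14 (0.968), a membrane metalloproteinase. P2ry14 was most like C4b (0.973), a complement component. P2ry2 was most like Il17ra (0.959), the IL-17 receptor chain, P2rx7 like Hmha1 (0.977), P2ry13 like Efcab2 (0.966), P2rx4 like Spg11 (0.968) and Entpd1 like Ptplad2 (0.963). The nearest to P2ry6 was a P2X gene, P2rx3 (0.926). Among the members themselves r was 0.887 for P2ry13 with P2ry14, 0.868 for Adora2a with Adora2b, -0.957 for Adora2a with Entpd1 and -0.898 for Adora2a with P2rx7. These are descriptions over groups, not tests.

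The wider purinergic system was read from 53 further genes, of which 39 were bright enough to test. With LPS 9 rose and 11 fell in WT and 11 rose and 9 fell in Ifnar1-/- cells, where 41.2% and 24.8% of all genes were called. With IFNβ 8 rose and 13 fell in WT, where 35.3% of all genes were called, and in Ifnar1-/- cells limma called 0, where 0% were. By class, LPS in WT cells raised 1 and lowered 1 of 7 other receptors, raised 3 and lowered 4 of 12 other ectoenzymes, lowered 2 of 3 nucleotide release genes, and raised 5 and lowered 4 of 17 genes of nucleoside transport and adenosine metabolism. IFNβ in WT cells lowered all 3 tested nucleotide release genes. The median log2 difference of the 39 genes was -0.26 with LPS and -0.04 with IFNβ in WT, against -0.08 and -0.17 over all genes.

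Slc28a2, a concentrative nucleoside transporter, read 10.52 and 11.05 in untreated and 16.33 and 16.54 in LPS-treated WT cells, and 11.15 and 11.37 against 10.56 and 11.00 in Ifnar1-/- cells. The WT groups lay far apart, while the Ifnar1-/- LPS arrays lay slightly below the untreated ones. The responses differed by -6.13 on the log2 scale (limma adjusted p = 3.2e-06). It also rose by 4.80 with IFNβ in WT (limma adjusted p = 2.1e-08). Adora3, an adenosine receptor coupled to Gi, rose by 3.33 with LPS (limma adjusted p = 5.2e-05) and 2.37 with IFNβ (limma adjusted p = 0.0014) in WT, and its responses differed between genotypes by -3.19 (limma adjusted p = 0.011) and -2.56 (limma adjusted p = 0.019).

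Cd38 and Bst1, enzymes that use NAD at the cell surface, rose by 4.62 (limma adjusted p = 0.00026) and 4.54 (limma adjusted p = 1.2e-06) with LPS in WT. The LPS response of Bst1 differed by -2.65 in Ifnar1-/- minus WT (limma adjusted p = 0.024), and that of Cd38 differed by 1.31 (limma adjusted p = 0.65), with a rise of 5.93 in Ifnar1-/- cells (limma adjusted p = 0.00012). Pnp2, a purine nucleoside phosphorylase whose copy Pnp is nearly identical in sequence so that their probes may not be separate, rose by 4.59 with LPS (limma adjusted p = 7.2e-07) and 4.15 with IFNβ (limma adjusted p = 1.7e-06) in WT and by 3.87 with LPS in Ifnar1-/- cells (limma adjusted p = 3.9e-05). Pnp rose there by 2.24 (limma adjusted p = 1.7e-05).

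Slc17a9, which loads ATP into vesicles, fell with LPS by 2.05 (limma adjusted p = 8.1e-06) and with IFNβ by 2.18 (limma adjusted p = 4e-06) in WT, and its LPS response differed by 1.81 in Ifnar1-/- minus WT (limma adjusted p = 0.0057). P2ry1, an ADP receptor, fell by 3.04 with LPS (limma adjusted p = 0.00018) and by 2.90 with IFNβ (limma adjusted p = 0.00036) in WT and showed a log2 difference of -1.997 with LPS in Ifnar1-/- cells (limma adjusted p = 0.01). P2ry12, the ADP receptor beside P2ry13 and P2ry14 on chromosome 3, read 9.25 and 9.65 untreated and 12.23 and 11.69 with IFNβ in WT, a rise of 2.51 (limma adjusted p = 0.016). Its Ifnar1-/- values were 6.14 and 7.28 untreated and 6.88 and 7.31 with IFNβ, and the responses differed by -2.12, which was not called (limma adjusted p = 0.19). With LPS in Ifnar1-/- cells P2ry12 was not well above background on either array, at least 4.57-fold lower than untreated, a bound that was not tested. The fitted log2 difference, from measured means of 3.90 with LPS and 6.71 untreated, was -2.81 (limma adjusted p = 0.011).

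With LPS in WT cells Entpd4, a Golgi nucleotidase, fell by 1.86 (limma adjusted p = 0.0001). With IFNβ in WT cells Acpp, an acid phosphatase, fell by 3.03 (limma adjusted p = 6.8e-05) and Ampd3, an AMP deaminase, by 2.37 (limma adjusted p = 0.023). With LPS in Ifnar1-/- cells Ampd3 rose by 3.07 (limma adjusted p = 0.007), P2rx5, a P2X channel, rose by 1.98 (limma adjusted p = 0.037) and Xdh, xanthine dehydrogenase, fell by 2.21 (limma adjusted p = 0.0033).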

How the data were processed

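Total RNA of the 32 BMDM samples was amplified, labelled with Cy3 and hybridised to Agilent mouse arrays. The deposited scanner files hold the intensity of each spot, background-subtracted by the authors' scanner software, with probe positions on mm9 and probe names per the file headers. The authors also deposited a normalized log2 table, made with limma (version not given in the sources used here), in which some values are null for no stated reason. It served only as an alternative. The members and gene lists were chosen with earlier results of these data known.

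Spots marked as outliers (130 to 499 per array) were dropped, intensities were put on a log2 scale and quantile-normalized, and probes well above background on at least 50% of arrays were kept. The brightest probe stood for a gene. A 16-group limma 3.58.1 fit in R 4.3.3 gave each comparison, with Benjamini-Hochberg adjustment over 16033 genes, called under 0.05. The fit was tested on simulated data with independent noise on each array, which held neither slide effects nor an array standing apart, so that test does not cover them. All members were named, and of the other purinergic genes up to 8 per comparison with the largest called difference of at least 2-fold. Between 44.5% and 77.7% of probes were above background, and 2 arrays per group limit the precision. Replicate numbers coincide with slides in the headers. Over genes, replicate 1 minus replicate 2 correlated between groups at 0.317 to 0.669 in WT and 0.167 to 0.583 in Ifnar1-/- arrays, so a fit with slide as replicate block was an alternative. Others were the 75th-percentile scaling, normexp with offset 50, no filter, the mean of probes, the compared arrays alone, leaving out each array, and leaving out the Ifnar1-/- LPS+zVAD+Nec-1 group. Promoter windows came from RefSeq (GRCm38.p6). The gene most like Adora2b over the group means is not reported here.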

Additional observations from a re-analysis of the deposited data

Results flagged for a closer look

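Responses that differed between genotypes, by a test of the difference itself, are collected here as Ifnar1-/- minus WT on the log2 scale. With IFNβ the difference was 1.91 for P2ry6, -2.39 for P2ry13 and -2.54 for P2ry14. With IFNβ+zVAD it was 2.24 for P2ry6, 1.67 for P2rx7, -1.99 for P2ry14 and -3.22 for Adora2b. The P2rx7 value is that of its 3′-most probe, and it differed from that of the 5′-most probe. Both sets share the untreated arrays. The P2ry13 difference with IFNβ and the Adora2b difference with IFNβ+zVAD were each lost without any 1 of 7 of the 8 arrays. With IFNβ+zVAD the P2rx7 call was also lost without WT untreated replicate 2, and the P2ry14 call without WT untreated replicate 1. Fewer IFNβ+zVAD differences were called under the percentile scaling, as given below, and the members lost there are not named here. Outlying arrays were not tested within groups of 2.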

How the results depend on the processing

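Of 24 comparisons, the count of members called stayed within 1.5 times its value in 21 under the 75th-percentile scaling, in 23 with the authors' table, in 23 with normexp, in 24 with the mean of probes, in 24 without the filter, in 22 with the replicate block, in 22 of 23 without the Ifnar1-/- LPS+zVAD+Nec-1 group, and in 18 with the compared arrays alone. A comparison with 0 members called counted as unchanged if it stayed at 0, which was likely where almost no gene was called, as with zVAD alone. The tally also ignores which members were called. With IFNβ in WT cells the 75th-percentile scaling lost P2rx7 and gained P2rx4 at an unchanged count. The block lost no call of a member and added 13, given above. LPS+zVAD+Nec-1 against LPS+zVAD in WT went from 4 to 2 under the 75th-percentile scaling and to 0 with the compared arrays alone, which also gave 0 for the same comparison in Ifnar1-/- cells (4). LPS+zVAD against LPS in Ifnar1-/- cells went from 2 to 1 with the authors' table, 1 with normexp and 6 with the compared arrays. The LPS response difference went from 0 to 1 with the compared arrays. That of LPS+zVAD went from 0 to 1 with the compared arrays, 1 with the block and 1 without the Ifnar1-/- LPS+zVAD+Nec-1 group. That of IFNβ+zVAD went from 4 to 2 under the 75th-percentile scaling. Untreated Ifnar1-/- against WT went from 1 to 2 under that scaling, 2 with the block and 0 with the compared arrays. The compared arrays alone leave fewer samples to estimate the spread. For the others the cause was not tested.

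Leaving out each array in turn gave, in WT, 5 to 6 members for LPS, 3 to 5 for IFNβ, 5 to 7 for LPS+zVAD, 5 to 6 for IFNβ+zVAD, 4 to 4 for LPS+zVAD against LPS and 2 to 4 for Nec-1 after LPS+zVAD. A lone array was then assumed to vary like the other groups. In Ifnar1-/- cells it gave 5 to 6 for LPS, 6 to 8 for LPS+zVAD, 0 to 2 for LPS+zVAD against LPS and 1 to 6 for Nec-1 after LPS+zVAD. The response differences ranged over 2 to 3 for IFNβ and 2 to 4 for IFNβ+zVAD, and untreated cells over 0 to 1. All other comparisons gave 0 to 0. Of the member values called with all arrays or without 1, 1 changed sign, Entpd1 with Nec-1 after LPS+zVAD in Ifnar1-/- cells, at -1.09 without the array labelled replicate 2 and 2.27 without replicate 1. All 51 called treatment differences within a genotype had the same sign on both slides. Each called value is the mean of its 2 slide values, so being called already makes equal signs likely. Dim signal limited Nt5e and, on 1 array, P2ry13.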
